A study of Mus musculus with 7 samples.

Results

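The genes described here are 8 members of 31053 in the count tables: Aqp5, Aqp3, Slc6a2, Slc12a2, Slc34a2, Duox1, Duoxa1 and Tspan8. They were taken by gene symbol from the tables of all 7 libraries and were chosen by their measured levels, because Aqp5, Slc6a2, Duox1 and Tspan8 are high in Neu tumors. The contrast of Neu with the other tumors is therefore a description for them, with no test. Levels were read over 12168 cells with at least 1000 unique molecular identifiers (UMIs, each standing for 1 captured transcript), 500 genes and under 20% mitochondrial UMIs. The 4305 Neu cells carry the account of shares and co-variation.

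The study profiled mouse mammary tumors by droplet single-cell RNA sequencing after sorting for CD24+ Lin- cells, that is cells without Ter119, CD31 and CD45, from untreated adults. Neu tumors arose spontaneously in FVB/NJ mice that carry the MMTV-Neu transgene, in which a viral promoter active in mammary epithelium drives the oncogene. BRCA1-null tumors arose spontaneously in FVB/NJ mice with Brca1 F/F and Trp53 F/F alleles deleted by K14-Cre, a recombinase driven by a basal keratin promoter. PyMT tumors grew in FVB/NJ hosts from transplanted FF99WT cells, a line from an MMTV-PyMT tumor with floxed FIP200 alleles and no Cre, so both PyMT libraries share 1 line. By the study's methods the MMTV-Neu strain was also bred to floxed FIP200, and Neu A carried these alleles without Cre. The 4T1 tumor grew from a transplanted line in BALB/C mice and has 1 library, whereas each other type has replicates A and B, which were sequenced as separate batches.

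Aquaporins are water channels, and Aqp5 sits in the apical membrane of secretory cells of salivary and other exocrine glands, whereas Aqp3 also passes glycerol and is typical of basolateral membranes. Fluid secretion in such glands starts with Slc12a2, the sodium-potassium-2-chloride cotransporter NKCC1, which loads chloride into the cell across the basolateral membrane, and water follows the ions through aquaporins. Slc34a2 is a sodium-phosphate cotransporter of apical membranes in lung and lactating mammary gland. Slc6a2 is the noradrenaline transporter of sympathetic neurons. Duox1 is a membrane oxidase that releases hydrogen peroxide outside the cell, and Duoxa1 is the maturation factor that brings it to the cell surface. Tspan8 is a tetraspanin, one of a family of membrane proteins that organise receptors and integrins.

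Duox1 and Duoxa1 lie next to each other on chromosome 2 of GRCm38 and are read in opposite directions, away from a shared stretch. In the GENCODE M21 annotation Duoxa1 covers chr2:122302191-122313730 on the minus strand and Duox1 covers chr2:122315672-122347972 on the plus strand, with 1942 bases between their start sites. Both genes were high in the same 2 libraries, so the 250 bases before each start site (RefSeq, GRCm38.p6) are printed here, 5′ to 3′ on the strand of each gene. Capitals mark matches to GGGCGG on either strand.
Duox1 (chr2:122315422-122315671, plus strand): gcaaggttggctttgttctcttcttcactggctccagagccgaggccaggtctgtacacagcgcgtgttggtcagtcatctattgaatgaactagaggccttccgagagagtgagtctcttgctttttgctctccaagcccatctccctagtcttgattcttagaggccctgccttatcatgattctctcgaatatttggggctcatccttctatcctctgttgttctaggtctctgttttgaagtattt
Duoxa1 (chr2:122313731-122313980, minus strand): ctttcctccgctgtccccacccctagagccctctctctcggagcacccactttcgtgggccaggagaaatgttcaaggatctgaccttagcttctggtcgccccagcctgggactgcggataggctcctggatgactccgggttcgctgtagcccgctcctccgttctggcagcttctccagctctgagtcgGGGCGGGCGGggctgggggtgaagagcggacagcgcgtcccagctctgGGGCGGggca
The stretch before Duox1 had a GC content of 47.6% and the one before Duoxa1 of 65.6%. Duoxa1 held GGGCGG 3 times, with the outermost match from 58 to 53 bases before the start site and 2 of the 3 sharing bases. Duox1 held none. Neither stretch held TATAAA or TTCNNNGAA, the latter being the letters of a STAT site. Of 32841 promoters of the same length in the table, 32.7% held GGGCGG, 12.4% held TATAAA and 7.02% held TTCNNNGAA, on either strand. These matches describe letters and are not binding sites.

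The other members lie apart from each other. In the same annotation Aqp5 covers chr15:99590782-99594829 on the plus strand, Aqp3 chr4:41092722-41098183 on the minus strand and Tspan8 chr10:115816832-115849893 on the plus strand. Slc6a2 covers chr8:92960079-93001667 and Slc34a2 chr5:53038081-53071664, both on the plus strand, and Slc12a2 is on chromosome 18. All 8 are protein-coding genes. An annotated gene on the other strand overlaps Slc34a2 (Gm17182), Duoxa1 (Duoxa2) and Tspan8 (4930422I22Rik).

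Libraries held between 5578911 and 37693300 UMIs in the cells kept, with 245 cells in BRCA1-null replicate A and 1751 to 2308 in the others. BRCA1-null replicate A also stood apart in content, with Epcam, an epithelial adhesion gene, at 268.9 CPM (UMIs of a gene scaled to the library total) against 1888 CPM in replicate B. The 118 barcode sequences found in more than 1 library marked 4 to 45 cells of a library. With the study's filters, which remove them, Aqp5 in Neu was at 7870 and 5616 CPM against 7873 and 5599 CPM with the rule used here. In Neu the markers of secretory alveolar cells summed to 56283 CPM in replicate A and 60936 CPM in replicate B. The other libraries of the 3 types were at 715.2 to 23739 CPM. Csn3 made up 30698 and 33245 CPM of the Neu sums. Lalba, Csn1s1, Csn1s2a, Csn3, Cited4 and Cd36 were highest in the Neu libraries. Wap was at 7.91 and 17.6 CPM in Neu against 61.8 and 688.9 CPM in PyMT. Csn2 was at 112.4 and 2029 CPM in Neu against 1504 CPM in PyMT B and 459.4 CPM in BRCA1-null B. Over the same Neu libraries 10 leukocyte markers summed to 8.68 and 4.52 CPM with Ptprc at 0, and 7 endothelial markers to 1.54 and 1.49 CPM with Cdh5 and Cldn5 at 0. Fibroblast markers (6 genes) summed to 17.9 and 5.32 CPM, pericyte markers (5 genes) to 8.99 and 13.1 CPM with Cspg4 at 0, and neuronal markers (5 genes) to 0.497 and 0.0594 CPM with Snap25 and Chgb at 0. Of 10 salivary gland genes, summing to 24.0 and 103.5 CPM, Bhlha15 (14.6 and 16.4 CPM) and Prol1 (6.33 and 82.9 CPM) made up most of the sum, with Smgc and Klk1 at 0. All intervals below cover counting error only.

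Neu libraries held the highest levels of 6 of the 8 genes, and Aqp3 and Slc34a2 were the exceptions. The following levels are plain CPM, counted over all UMIs of a library. Aqp5 was at 7873 CPM in Neu A and 5599 CPM in Neu B, at 279.6 and 151.0 CPM in BRCA1-null A and B, at 181.7 and 377.8 CPM in PyMT A and B, and at 22.3 CPM in 4T1. Both Neu libraries lay far above all others, and the BRCA1-null and PyMT libraries overlapped. On the TMM scale of the fit, the Neu level exceeded the mean of PyMT and BRCA1-null by 4.81 in log2.

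Duoxa1 was at 1034 CPM in Neu A and 858.4 CPM in Neu B. In the other libraries it stood at 5.92 and 12.2 CPM (BRCA1-null), 5.52 and 14.1 CPM (PyMT) and 4.16 CPM (4T1). Its partner Duox1 was at 126.9 and 216.6 CPM in Neu, 0.896 and 1.69 CPM in BRCA1-null, 0.552 and 1.09 CPM in PyMT and 0.297 CPM in 4T1. For both genes the Neu libraries stood clear of the rest, while BRCA1-null and PyMT overlapped, and the fitted log2 differences for Neu were 6.63 for Duoxa1 and 7.31 for Duox1. Both members of the pair were also higher in replicate B than in replicate A of BRCA1-null and of PyMT. Within Neu the replicates differed in opposite directions, with Duox1 higher in B and Duoxa1 higher in A.

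Slc6a2 was at 58.3 CPM in Neu A and 75.5 CPM in Neu B, from 1290 and 2540 UMIs. BRCA1-null libraries held 2 and 24 UMIs of it (0.358 and 0.813 CPM) and PyMT libraries 2 and 6 UMIs (0.110 and 0.159 CPM), while 4T1 was at 3.32 CPM. The Neu libraries were therefore apart from all others, the fitted log2 difference was 7.74, and the low side of that difference rests on few UMIs. Slc12a2 was at 236.7 and 479.8 CPM in Neu, 23.1 and 33.8 CPM in BRCA1-null, 23.2 and 36.1 CPM in PyMT and 19.0 CPM in 4T1. Neu was the highest type for this cotransporter too, with a fitted log2 difference of 3.67, and its replicates differed more from each other than those of the other types.

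Tspan8 had another order. It was at 654.1 and 600.7 CPM in Neu, 300.3 and 313.3 CPM in PyMT, 9.14 and 11.6 CPM in BRCA1-null and 6.53 CPM in 4T1. No library of a type overlapped with another type, with Neu first and PyMT second. The fitted log2 difference of 3.48 between Neu and the mean of the other types sets Neu against a high and a low type.

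Aqp3 and Slc34a2 do not bear out the name under which the genes were picked. Aqp3 was at 0.226 CPM in Neu A (5 UMIs) and 2.53 CPM in Neu B, below the 9.14 and 18.3 CPM of BRCA1-null, and its fitted log2 difference for Neu was -1.66. PyMT libraries (1.99 and 1.22 CPM) fell between the Neu replicates, and 4T1 was at 4.26 CPM. Slc34a2 was at 5.60 and 2.91 CPM in Neu, 3.37 and 2.92 CPM in PyMT, 1.08 and 1.02 CPM in BRCA1-null and 0.148 CPM (3 UMIs) in 4T1. The Neu and PyMT libraries overlapped, and Slc34a2 was low in every library.

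Both Neu libraries lay above the other 4 libraries of the fit for 6 of the 8 members, Aqp5, Slc6a2, Slc12a2, Duox1, Duoxa1 and Tspan8. Over 13950 genes tested, 21.9% had this pattern. Within each sequencing batch the Neu library exceeded the BRCA1-null and PyMT libraries for these 6 genes. This follows from that pattern and is no separate check. Neu tumors also differ from PyMT tumors in being spontaneous and not transplanted, and tumor type and origin cannot be told apart for that pair.

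**Figure D1:**
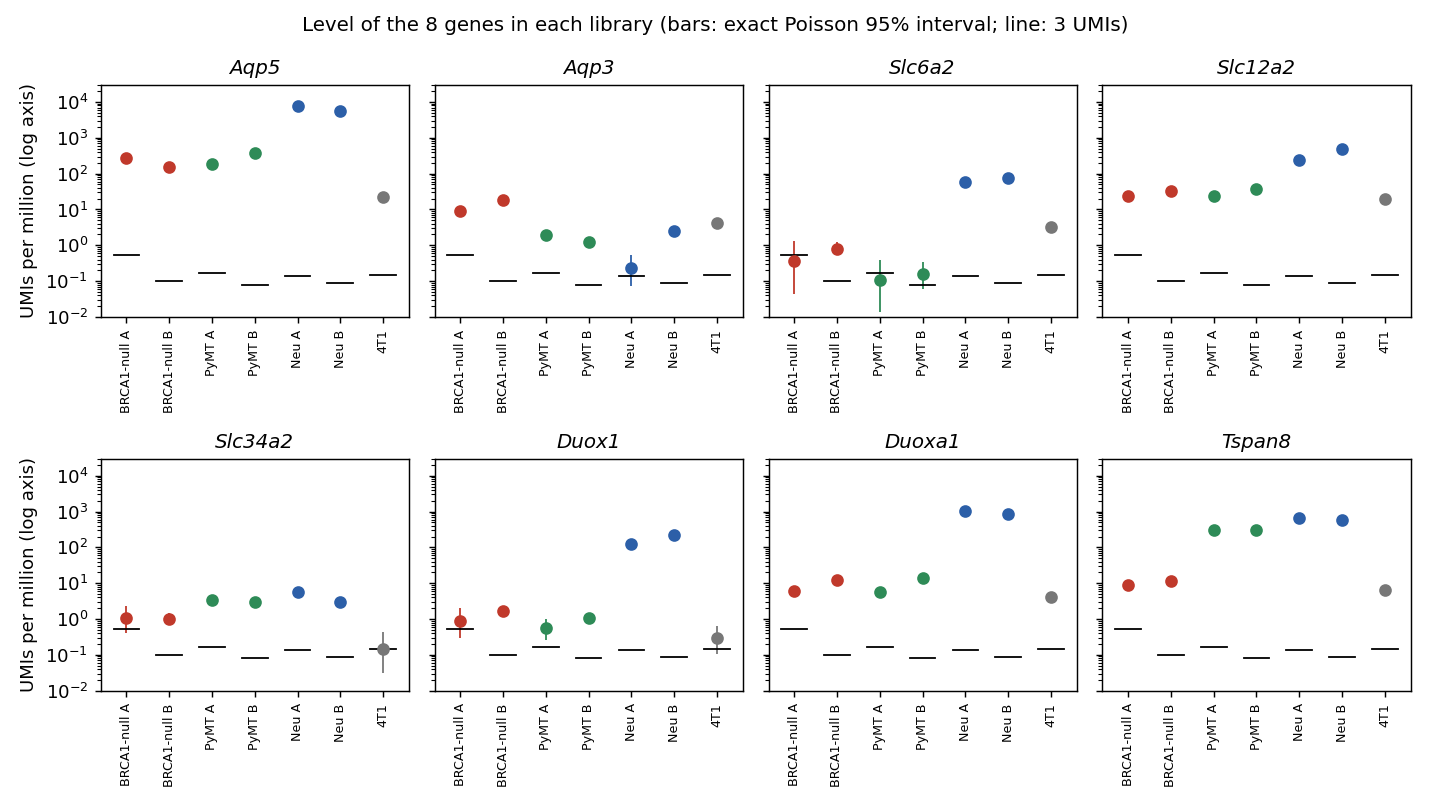
Level of each gene in the 7 libraries, in CPM on a log axis, with exact Poisson 95% intervals and a black line at the level of 3 UMIs in that library (red BRCA1-null, green PyMT, blue Neu, gray 4T1). Neu libraries are the highest for 6 genes, BRCA1-null libraries are the highest for Aqp3, and Neu and PyMT overlap for Slc34a2.

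To ask whether these levels came from most Neu cells or from a few, each cell was thinned to 3000 UMIs, which kept 2075 of 2308 cells in Neu A and 1948 of 1997 in Neu B and left out the shallower ones. At that depth Aqp5 had a UMI in 99.0% of Neu A cells (Clopper-Pearson interval 98.5 to 99.4%) and 98.1% of Neu B cells (97.4 to 98.7%). The median cell held 22 Aqp5 UMIs in Neu A and 14 in Neu B, and 90% of cells held at least 7 and 3. In PyMT 34.2% and 50.9% of cells had an Aqp5 UMI and in BRCA1-null 27.5% and 22.7%. At that depth Aqp5 was therefore found in nearly all cells of Neu tumors and in far fewer cells elsewhere. Without thinning, it was found in 98.9% and 99.0% of Neu cells, 59.8% and 86.1% of PyMT cells and 68.2% and 48.0% of BRCA1-null cells. The size of the gap in shares thus depends on depth.

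Duoxa1 was detected in 85.7% of Neu A cells (84.1 to 87.2%) and 82.3% of Neu B cells (80.6 to 84.0%), with a median of 2 UMIs in both. Duox1 was detected in 29.0% (27.1 to 31.0%) and 42.1% (39.9 to 44.3%). Outside Neu, Duoxa1 did not exceed 3.63% of thinned cells and Duox1 did not exceed 0.684%. In unthinned cells Duoxa1 reached 16.7% in PyMT B, against 90.3% and 95.1% in Neu. Duox1 reached 2.26% in BRCA1-null B, against 54.1% and 79.1% in Neu. Tspan8 was detected in 81.2% (79.4 to 82.8%) and 76.5% (74.5 to 78.4%) of Neu cells, against 52.2% and 50.3% of PyMT cells and 1.35% and 3.31% of BRCA1-null cells. The median PyMT cell held 1 Tspan8 UMI and the median Neu cell 2, while the median BRCA1-null cell held 0. Unthinned Tspan8 shares were 91.7% and 95.2% in Neu, 78.3% and 87.1% in PyMT and 15.5% and 10.3% in BRCA1-null.

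Slc12a2 was found in 45.2% (43.0 to 47.4%) of Neu A cells and 65.6% (63.4 to 67.7%) of Neu B cells, and in 5.86 to 9.94% of cells of the BRCA1-null and PyMT libraries. Slc6a2 was found in 15.2% (13.7 to 16.8%) and 18.3% (16.6 to 20.1%) of Neu cells, and in 0 to 0.45% of cells of those 4 libraries. Without thinning, the shares rose with depth, to 33.6% and 54.9% for Slc6a2 and to 72.8% and 89.8% for Slc12a2. No Neu cell held more than 5 Slc6a2 UMIs after thinning, and the 10% of cells with the most UMIs held 71.1% of them in Neu A and 62.0% in Neu B. For Aqp5 the top 10% of cells held 21.8% and 26.6%. The mean was 0.180 and 0.218 Slc6a2 UMIs a cell against 23.2 and 17.4 for Aqp5. With counts as sparse as those of Slc6a2, the top cells hold most UMIs whatever the spread. These values therefore do not tell whether Slc6a2 is confined to some Neu cells. Slc34a2 had a UMI in 1.78% and 1.08% of Neu cells and Aqp3 in 0.145% and 0.616%.

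Free RNA can give UMIs to cells that do not express a gene. A reference for it came from BRCA1-null B, where 170 cells had at least 3 UMIs of leukocyte, endothelial, fibroblast or pericyte markers and none of Epcam, Krt8 and Krt18. Their median depth was 10900.5 UMIs against 13126 in the other cells before thinning. Of these cells 7.06% (3.70 to 12.01%) had an Aqp5 UMI, against 24.3% of the other cells of that library. Slc12a2 was in 7.65% (4.13 to 12.7%) against 10.2%, Duoxa1 in 4.71% (2.05 to 9.06%) against 3.52% and Tspan8 in 1.18% (0.143 to 4.19%) against 3.52%. Aqp3 was in 0.588% (0.0149 to 3.23%) against 3.47%. The Slc12a2, Duoxa1 and Tspan8 shares of the other BRCA1-null B cells lie inside the intervals of the reference cells. Those of Aqp5 and Aqp3 lie above them. Shares inside the intervals do not decide whether a gene is expressed in these cells. Single cells of BRCA1-null B held up to 18 Slc12a2, 16 Tspan8 and 5 Duoxa1 UMIs before thinning. Leukocytes and endothelial cells were sorted out, and whether the reference cells are mesenchymal tumor cells that transcribe some members was not tested. Neu held 1 such cell in replicate A and 0 in replicate B, so no reference of this kind could be had within Neu, and the part of free RNA in the Neu shares was not tested.

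**Figure D2:**
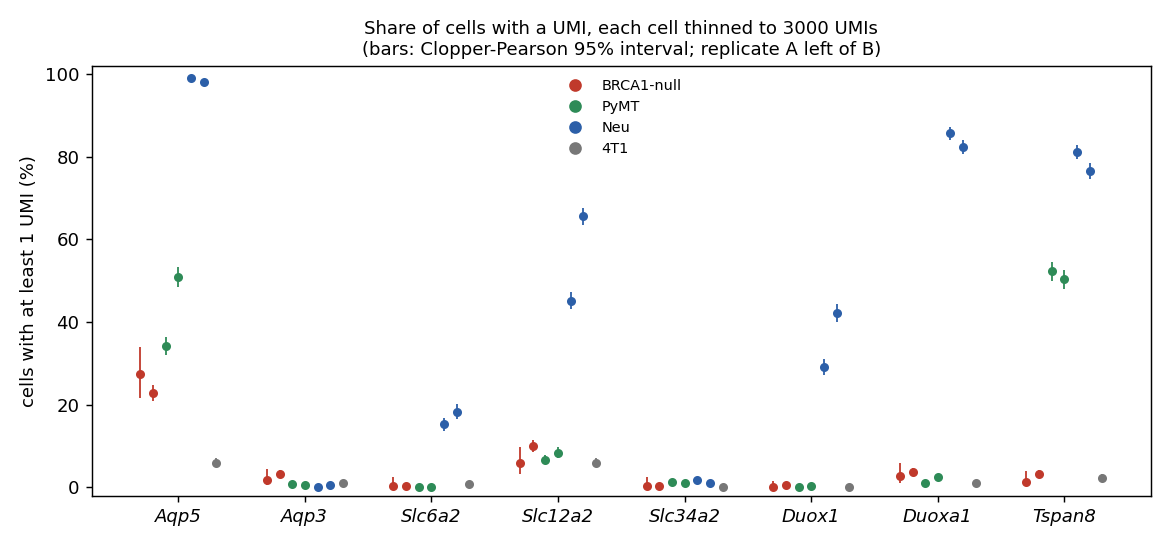
Share of cells with at least 1 UMI of each gene, in percent, after thinning each cell to 3000 UMIs, by library (red BRCA1-null, green PyMT, blue Neu, gray 4T1, replicate A left of B, bars Clopper-Pearson 95% intervals). Neu shares run from 15.2% for Slc6a2 in replicate A to 99.0% for Aqp5, and those of Aqp3 and Slc34a2 stay under 2% in Neu.

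PyMT against BRCA1-null is a contrast that the choice of genes did not use. Tspan8 rose in PyMT and so did Slc34a2, and none of the 8 genes fell past the threshold. Fitted on all 6 libraries with the quasi-likelihood test of edgeR and Benjamini-Hochberg adjustment over 13950 genes, Tspan8 differed by 5.22 ± 0.34 in log2 (SE, 2 libraries a type, adjusted p = 0.00153). With each library left out in turn its adjusted p stayed between 0.000513 and 0.0402. For Slc34a2 the difference was 1.93 ± 0.50 (adjusted p = 0.0360), and it was lost without any single library, at adjusted p from 0.0520 without BRCA1-null A to 0.165 without PyMT A. The BRCA1-null A level of Slc34a2 came from 6 UMIs, all in 1 of 245 cells. Of all genes tested 7.94% were higher and 14.5% lower in PyMT, against Tspan8 and Slc34a2 higher and no member lower. Markers of other cells moved with this contrast, since fibroblast markers summed to 390.4 and 1772 CPM in BRCA1-null against 1.77 and 11.6 CPM in PyMT. Basal markers summed to 477.2 and 2916 CPM against 16.6 and 48.1 CPM, and leukocyte markers to 66.9 and 110.7 CPM against 54.0 and 43.7 CPM. S100a8 made up 52.4 and 42.3 CPM of the PyMT leukocyte sums, against 2.33 and 7.49 CPM in BRCA1-null. Tyrobp, Fcer1g, Lyz2, C1qa and C1qb were higher in both BRCA1-null libraries than in either PyMT library. The part of these other cell types in the member differences, and in those of the related genes that use BRCA1-null, was not tested.

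All 8 members passed the filter on low counts in this fit, and 7 of 8 passed it on the BRCA1-null and PyMT libraries alone. The exception was Slc6a2, which entered only through its Neu libraries. Its 2 and 24 UMIs in BRCA1-null and 2 and 6 UMIs in PyMT are therefore given with no test. Aqp3 had a lower value in PyMT that missed the threshold, at -2.80 ± 1.01 (adjusted p = 0.0908, and 0.115 with the replicate as a block). It passed without Neu A (0.0426) or Neu B (0.0437). Aqp5 differed by 0.77 ± 0.43 (adjusted p = 0.242), Slc12a2 by 0.40 ± 0.48 (0.590), Duoxa1 by 0.41 ± 0.54 (0.623) and Duox1 by -0.41 ± 0.55 (0.629). For each of these 4 genes the libraries of the types overlapped on the plain scale, and a p that misses the threshold does not show equal levels.

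Within Neu tumors the members could be tested against the state of the cells. Cells were split at the library median of Lalba UMIs, which codes for the milk protein alpha-lactalbumin and marks secretory alveolar cells, and UMIs of the thinned cells were summed for each class of each library. In the Lalba-high cells 5 members rose: Aqp5, Slc6a2, Duox1, Duoxa1 and Tspan8. The median was 16 Lalba UMIs in Neu A, with 1007 cells above it and 1068 at or below it, and 10 in Neu B, with 948 and 1000.

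Duoxa1 moved from 768.2 to 1232 CPM between Lalba-low and Lalba-high cells of Neu A and from 698.9 to 1072 CPM in Neu B, a log2 change of 0.66 ± 0.06 (edgeR with the library as block, adjusted p = 3.42e-05). Duox1 moved from 108.9 to 154.2 CPM in Neu A and from 165.9 to 256.8 CPM in Neu B (0.58 ± 0.08, adjusted p = 0.00131). The oxidase and its maturation factor thus rose together, in both tumors. Aqp5 moved from 6818 to 8805 CPM and from 4853 to 6853 CPM (0.44 ± 0.04, adjusted p = 6.26e-05). Slc6a2 moved from 51.3 to 70.2 CPM and from 59.1 to 87.6 CPM (0.52 ± 0.12, adjusted p = 0.0321). Tspan8 moved from 619.5 to 694.9 CPM and from 556.1 to 704.4 CPM (0.26 ± 0.06, adjusted p = 0.0367). The calls of Slc6a2 and Tspan8 did not hold when cells were thinned to 2000 UMIs (adjusted p = 0.393 and 0.447), when cells over 3 times the median UMI count were removed (0.214 and 0.159) or with DESeq2, which also left Duox1 at an adjusted p of 0.0981. The Slc6a2 call was lost with the study's filters too (0.0530).

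Slc12a2 did not pass this test. It was at 235.0 and 247.1 CPM in Lalba-low and Lalba-high cells of Neu A and at 461.6 and 504.4 CPM in Neu B, a difference of 0.11 ± 0.07 that missed the threshold (adjusted p = 0.484). Slc34a2 had 17 and 23 UMIs in Neu A and 6 and 15 in Neu B (0.84 ± 0.39, adjusted p = 0.349), and Aqp3 was too low to be tested. With the study's filters Slc34a2 was at 1.77 ± 0.45 and passed (adjusted p = 0.0425). Over 9511 genes tested, 0.978% rose and 1.65% fell with Lalba, against 5 and 0 of the 7 members tested. The study had already named Aqp5 among the genes that define a Neu cluster rich in milk genes such as Lalba. It also reported Tspan8 as marginally higher in the Neu cluster that it read as more differentiated. For both genes the rise in Lalba-high cells is therefore no new result from these libraries. Both classes of a library share their free RNA and doublets, and only 1 residual degree of freedom is left, so the spread is taken largely from other genes. Without the block no gene of the table was called (40 higher and 92 lower at an unadjusted p under 0.05), while Duoxa1 stayed at 0.66 and Aqp5 at 0.44.

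Cd14, a luminal progenitor gene in the mammary gland, gave a call for Aqp5, in the other direction, and for no other member. Cells with a Cd14 UMI numbered 534 of 2075 in Neu A and 601 of 1948 in Neu B. Aqp5 fell from 8192 to 6403 CPM in Neu A and from 6230 to 4823 CPM in Neu B, a log2 change of -0.32 ± 0.04 (adjusted p = 1.20e-12). Duoxa1 had -0.13 ± 0.06 (adjusted p = 0.338), Slc6a2 -0.12 ± 0.13 (0.834), Duox1 -0.04 ± 0.09 (0.940), Slc12a2 0.04 ± 0.08 (0.927) and Tspan8 0.08 ± 0.07 (0.729). Slc34a2 had -0.89 ± 0.51 (adjusted p = 0.503). Over 9435 genes tested, 2.48% were higher and 0.869% lower in Cd14-positive cells. The study had already placed higher Aqp5 and higher Cd14 in different Neu clusters of these libraries. The direction for Aqp5 is therefore no new result. This split too leaves 1 residual degree of freedom, so its p values rest largely on the spread of other genes. They do not measure the spread between tumors. The Aqp5 call held with DESeq2 (adjusted p = 0.0353) and with edgeR under the UMI cap (0.00209). Without the block it was lost, while the value stayed at -0.32. Lalba was lower in the Cd14-positive cells as well, at 5628 against 6395 CPM in Neu A and 4445 against 5092 CPM in Neu B, and its part in the Aqp5 difference was not tested.

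Proliferating Neu cells, those with a UMI of at least 2 of 8 mitosis genes such as Top2a and Cdk1, numbered 39 in Neu A and 61 in Neu B. In these cells 5 members fell: Aqp5, Slc6a2, Slc12a2, Duoxa1 and Tspan8. Tspan8 was at 368.2 CPM in proliferating cells and 657.3 CPM in the other cells of Neu A and at 471.0 and 629.9 CPM in Neu B, a log2 change of -0.82 ± 0.14 (adjusted p = 2.98e-07). Slc12a2 was at 119.9 and 241.7 CPM in Neu A and at 312.2 and 485.4 CPM in Neu B (-0.96 ± 0.17, adjusted p = 1.45e-06). Duoxa1 was at 599.4 and 993.6 CPM and at 728.4 and 880.4 CPM (-0.70 ± 0.12, adjusted p = 9.65e-07). Aqp5 was at 5566 and 7772 CPM and at 4858 and 5825 CPM (-0.60 ± 0.09, adjusted p = 4.17e-09). Here too 1 residual degree of freedom is left, and the p values rest largely on the spread of other genes. Without the block no member was called.

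The median change over all 9502 genes tested was -0.19, and the falls are to be read against it. On plain CPM, which is not scaled by TMM, Aqp5 was at -0.48 in Neu A and -0.26 in Neu B and Duoxa1 at -0.73 and -0.27. Slc12a2 was at -1.01 and -0.64 and Tspan8 at -0.84 and -0.42, so the falls were smaller than the fitted ones in Neu B for all 4 genes and in Neu A for Aqp5. Slc6a2 fell by 1.78 ± 0.46 in log2 (adjusted p = 0.00236) on 3 and 4 UMIs in the proliferating cells, and its call was lost with DESeq2 (0.278), thinning to 2000 UMIs (0.511), the study's filters (0.373) and the UMI cap (0.244). Duox1 did not pass the test, at -0.26 ± 0.21 (adjusted p = 0.598), and its plain CPM was lower in proliferating cells of Neu A (85.6 against 130.8) and higher in Neu B (235.5 against 208.1). Slc34a2 had 1 and 0 UMIs in proliferating cells (adjusted p = 0.914). Of all genes tested 4.08% rose and 5.57% fell in proliferating cells, against 0 and 5 of 7 members.

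**Figure D3:**
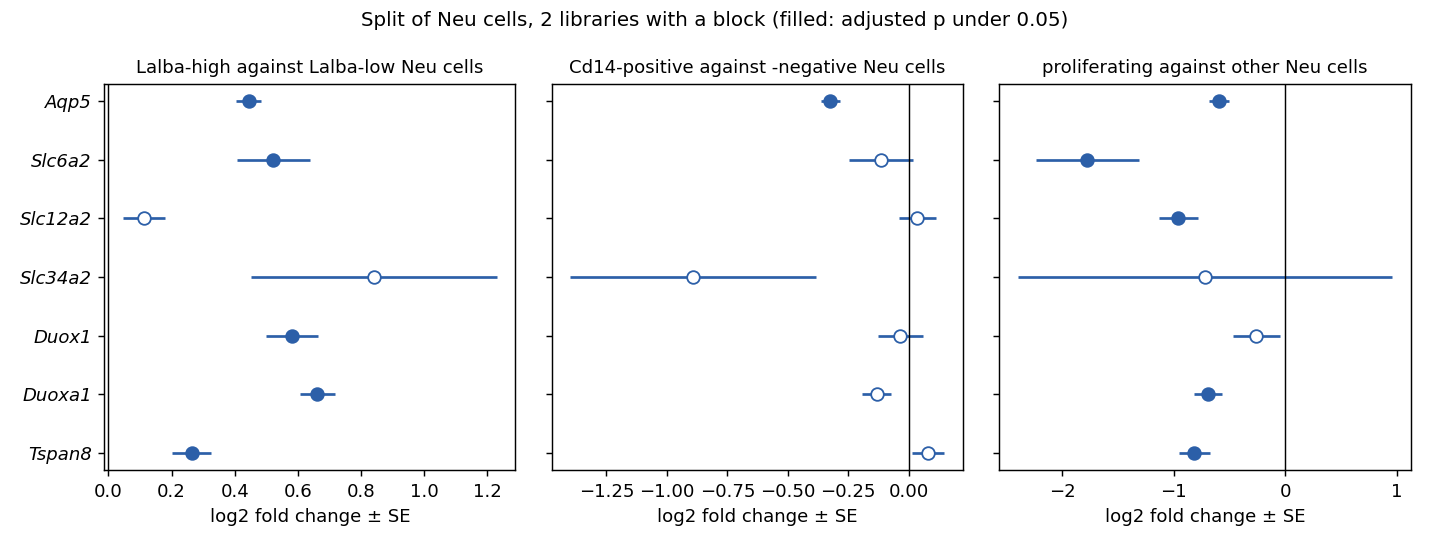
Log2 fold change with its SE for the 7 members tested in each of 3 splits of Neu cells, fitted over both libraries with the library as block (filled points, adjusted p under 0.05). Filled points number 5 to the right of 0 for Lalba, 1 to the left for Cd14 and 5 to the left for proliferation, and Slc12a2 is filled only for proliferation. The 3 panels have their own x axes.

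Cell by cell, the members formed no single block. Over Neu cells, r is Pearson's correlation of log2(thinned UMIs + 1), given as a description because all cells of a library share its depth, free RNA and tumor. Of 28 pairs of members, 6 had r over 0.1 in both libraries. Aqp5 and Duoxa1 were the closest pair, at 0.427 in Neu A and 0.460 in Neu B over 2075 and 1948 cells. Duox1 and Duoxa1 followed at 0.225 and 0.218, and Aqp5 and Tspan8 at 0.186 and 0.301. Cells with both Duox1 and Duoxa1 numbered 558 in Neu A against 515.8 from the product of the shares, and 743 against 675.2 in Neu B. Slc12a2 and Duoxa1 were close to 0, at 0.017 and 0.004, although both genes are high in Neu tumors. Duox1 and Tspan8 were at -0.002 in Neu A and 0.093 in Neu B.

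The genes most like each member were found over 4501 genes seen in at least 5% of thinned cells of both Neu libraries, ranked by the lower r of the 2 libraries. Aqp5 was closest to Duoxa1, then Aldoc (0.393 and 0.397), a glycolytic aldolase, Pgp (0.452 and 0.387), Lalba (0.406 and 0.369) and Trf (0.383 and 0.326), which codes for transferrin. Duoxa1 had Aqp5, Aldoc (0.463 and 0.360), Lalba (0.367 and 0.324), Trf (0.300 and 0.285) and Pgp (0.255 and 0.281). Duox1 had Duoxa1, Aldoc (0.167 and 0.224), Lalba (0.134 and 0.197), Trf (0.115 and 0.196) and Btn1a1 (0.111 and 0.134), a milk fat globule gene. Lalba, Aldoc and Trf were thus among the 5 closest genes of all 3 members.

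For Slc12a2 the list was Etnk1 (0.180 and 0.207), Car6 (0.169 and 0.181), Cldn10 (0.150 and 0.185), Arg1 (0.147 and 0.153) and Cpd (0.143 and 0.234). Car6 is a secreted carbonic anhydrase and Cldn10 a claudin that forms ion-selective paracellular pores. Tspan8 had Aqp5, Cd9 (0.143 and 0.220), itself a tetraspanin, Tmbim6 (0.140 and 0.136), Tcn2 (0.151 and 0.128) and Tmem59 (0.117 and 0.127). For Slc6a2 the 5 closest genes were at 0.158 or below in both libraries, with Aqp5 (0.132 and 0.141), Trf (0.158 and 0.114), Lalba (0.104 and 0.097), Npnt (0.096 and 0.098) and Duoxa1 (0.098 and 0.086). With counts as sparse as those of Slc6a2, such weak values are no finding.

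**Figure D4:**
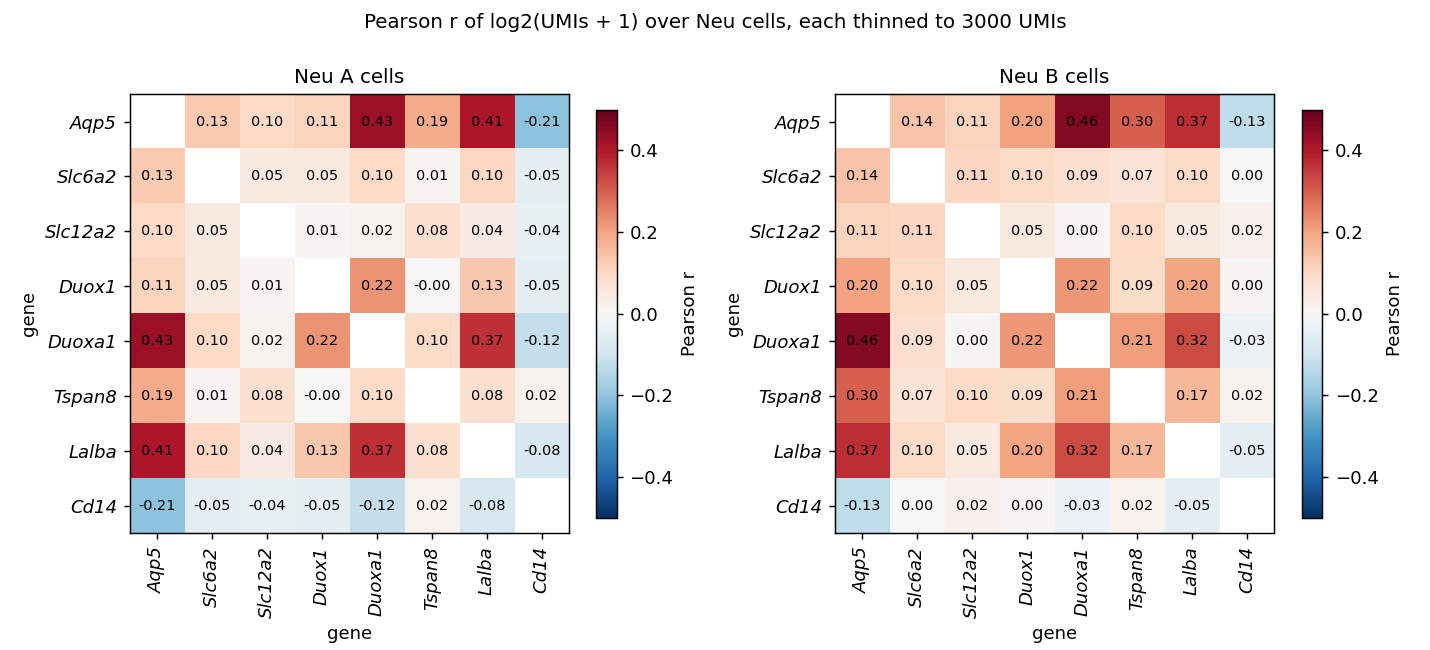
Pearson r over Neu A cells (left) and Neu B cells (right) for the 6 members seen in at least 5% of cells of both libraries, with Lalba and Cd14, after thinning to 3000 UMIs. Aqp5, Duoxa1 and Lalba share the strongest values, Slc12a2 stays near 0 with Duoxa1, and Aqp5 with Cd14 is at -0.21 and -0.13.

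The families and pathways around the members were compared between Neu and the mean of the other 2 types. These lists hold 172 genes, of which 123 passed the filter on low counts, and 27 were higher and 14 lower in Neu at an adjusted p under 0.05. Over all 13950 genes tested, 13.4% were higher and 9.76% lower. The median log2 change of the 123 genes was 0.03 against -0.05 over all genes. The lists were drawn up with results of these tumors known. Values below are TMM CPM, and because the contrast averages 2 unlike types, a gene can be called while it overlaps with 1 of them. Without PyMT A or B, or Neu A or B, the higher count fell to 13, 15, 8 and 11 and the lower count to 6, 8, 1 and 1, and without BRCA1-null A the lower count was 23. Of the 31 related genes picked by the rule for naming, 8 kept their call under all 14 other settings, and these were Aqp2, Wnk2, Slc6a6, Adrb1, Kcnn4, Ano1, Slc29a1 and Abcg2. A further 21 lost it only when a library was left out, all of them without Neu A. Cd63 and Duox2 lost it under other settings too.

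Of 10 other aquaporins 4 passed the filter, 1 was higher and 1 lower, with a median of -1.07. Aqp2, the vasopressin-regulated channel of the kidney, was at 10.8 and 5.70 CPM in Neu, 0.582 and 0.512 CPM in BRCA1-null and 0.0626 and 0 CPM in PyMT (6.10 ± 0.64, adjusted p = 0.00267). Aqp1 was called lower (-2.73 ± 0.78, adjusted p = 0.0464) because it was at 11.1 and 21.7 CPM in BRCA1-null, since in PyMT (0.0626 and 0.0299 CPM) it was below Neu (0.0859 and 0.160 CPM). Aqp2 was thus another water channel higher in Neu than in the other types, at a level far below Aqp5 (7486 and 6035 CPM in Neu on this scale).

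Among 14 other cation-chloride cotransporters and their kinases, 11 passed the filter, 4 were higher and 2 lower, with a median of 0.08. Stk39, the kinase that activates Slc12a2, was at 217.5 and 135.7 CPM in Neu against 32.05 to 102.7 CPM in the others (1.38 ± 0.37, adjusted p = 0.0396). Wnk2, of the WNK kinase family that acts on Stk39, was at 20.5 and 17.6 CPM against 1.38 to 4.01 CPM (3.04 ± 0.38, adjusted p = 0.00398), whereas Wnk1 was at 37.8 and 32.9 CPM against 72.6 to 93.7 CPM (-1.27 ± 0.24, adjusted p = 0.0142). Slc12a4, a chloride exporter, was lower, with 0.0430 and 0 CPM in Neu against 0.119 to 9.03 CPM (adjusted p = 0.0121). Kinases on the same pathway were thus called in both directions.

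The list of ion transport in secretory epithelia held 24 genes, of which 21 passed, with 6 higher and 2 lower and a median of 0.67. Ano1, the calcium-activated chloride channel of secretory cells, was at 208.1 and 183.1 CPM in Neu, 64.7 and 77.7 CPM in PyMT and 23.3 and 15.4 CPM in BRCA1-null (2.40 ± 0.25, adjusted p = 0.00250). Kcnn4, a calcium-activated potassium channel, was at 727.4 and 599.9 CPM in Neu, 291.2 and 248.9 CPM in PyMT and 75.5 and 96.7 CPM in BRCA1-null (2.12 ± 0.23, adjusted p = 0.00271). Both channels were thus higher in Neu, where Slc12a2 and Aqp5 were high too. On the other side, Atp1b3 and Fxyd2, subunits of the sodium pump, were lower, at 37.8 and 30.2 CPM against 54.5 to 84.5 CPM (adjusted p = 0.0450) and at 0.129 and 0.0640 CPM against 1.70 to 4.55 CPM (adjusted p = 0.00800).

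Other oxidases and users of peroxide gave few calls. Of 25 genes 17 passed, 2 were higher and 1 lower, with a median of -0.15. Duox2, the closest relative of Duox1, was called higher (adjusted p = 0.0496) at 0.516 and 0.576 CPM in Neu. It was at 0.0626 and 0.358 CPM in PyMT and at 0 in both BRCA1-null libraries. Its level was low in every library, and the call was lost under 10 of 14 other settings. Prdx6, a peroxiredoxin, was at 527.9 and 478.2 CPM in Neu against 135.5 to 253.0 CPM (1.42 ± 0.23, adjusted p = 0.00826). Gpx3, a secreted glutathione peroxidase, was at 0.172 and 0.448 CPM against 5.56 to 61.1 CPM (-6.30 ± 1.14, adjusted p = 0.0115). Lpo, the milk peroxidase that uses hydrogen peroxide, was at 0 and 0.0320 CPM in Neu.

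For Slc6a2, the genes of noradrenaline handling did not move as a set. Of 18 genes 7 passed the filter, 1 was higher and 2 lower, with a median of -1.23. Th and Pnmt, enzymes of catecholamine synthesis, were at 0 in both Neu libraries, as was Slc18a2, the vesicle transporter, and Dbh was at 0 and 0.0320 CPM. Adrb1, the beta-1 adrenergic receptor, was at 35.9 and 42.8 CPM in Neu against 0.436 to 3.46 CPM in the others (3.97 ± 0.56, adjusted p = 0.00542). Maoa, which breaks down noradrenaline, was at 9.75 and 6.72 CPM against 15.1 to 34.8 CPM (-1.41 ± 0.34, adjusted p = 0.0291), and Adra2a was at 0 in both Neu libraries against 0.251 to 1.41 CPM (adjusted p = 0.0156). The uptake gene and 1 receptor were thus high in Neu without the synthesis genes.

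Of 19 other Slc6 transporters 7 passed, 1 was higher and 1 lower, with a median of -0.78. Slc6a14, an amino acid transporter, was at 24.9 and 14.5 CPM in Neu against 0.582 to 6.26 CPM (3.51 ± 0.52, adjusted p = 0.00653). Slc6a6, the taurine transporter, was at 4.81 and 4.23 CPM against 20.97 to 55.8 CPM (-2.79 ± 0.33, adjusted p = 0.00345). Of 8 other phosphate transporters 5 passed and none was called, with a median of 0.23.

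Tetraspanins other than Tspan8 numbered 28, of which 26 passed, 8 were higher and 3 lower, with a median of 0.19. Cd81 was at 1920 and 1385 CPM in Neu, 1468 and 1291 CPM in PyMT and 195.3 and 434.5 CPM in BRCA1-null (1.33 ± 0.35, adjusted p = 0.0370), so Neu and PyMT overlapped. Cd82 was at 174.8 and 152.2 CPM against 30.2 to 124.5 CPM (1.22 ± 0.26, adjusted p = 0.0196) and Tspan3 at 285.1 and 206.6 CPM against 88.9 to 143.7 CPM (1.24 ± 0.26, adjusted p = 0.0181). Cd63, a lysosomal and exosomal tetraspanin, was at 472.9 and 505.6 CPM against 753.5 to 1289 CPM (-1.01 ± 0.28, adjusted p = 0.0415), and with the replicate block that call was lost. Tspan5 was lower (7.56 and 7.59 CPM against 16.8 to 35.9 CPM, adjusted p = 0.0249). Tspan18 was called lower (adjusted p = 0.0208) while its Neu levels of 0.0430 and 0.0961 CPM overlapped with those of PyMT (0.125 and 0.0299 CPM).

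Among 26 transporters of the lactating gland, 25 passed, 4 were higher and 2 lower, with a median of -0.20. Abcg2, which pumps riboflavin and drugs into milk, was at 109.2 and 100.3 CPM in Neu, 18.5 and 12.9 CPM in BRCA1-null and 1.06 and 1.16 CPM in PyMT (4.65 ± 0.25, adjusted p = 0.000721). Slc29a1, a nucleoside transporter, was at 855.4 and 547.4 CPM against 70.4 to 187.0 CPM (2.67 ± 0.36, adjusted p = 0.00468). Atp2c1, the Golgi calcium pump, was at 40.2 and 35.3 CPM against 16.2 to 21.7 CPM (0.99 ± 0.23, adjusted p = 0.0259). Slc1a5 and Slc16a1, carriers of glutamine and of lactate, were lower (adjusted p = 0.00658 and 0.00831), at 1.93 and 1.95 CPM and at 1.76 and 1.57 CPM, with PyMT close to them at 2.19 and 2.51 CPM and at 2.32 and 3.17 CPM. These counts are near the shares over all genes given above.

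**Figure D5:**
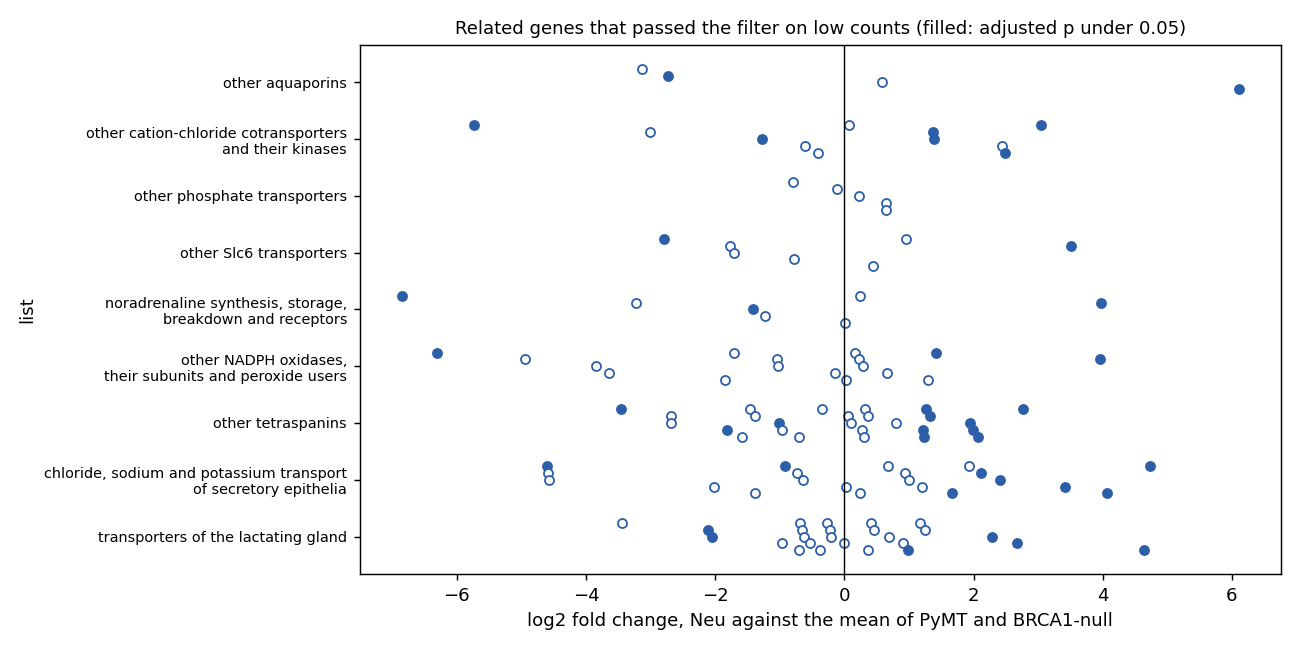
Log2 fold change of Neu against the mean of PyMT and BRCA1-null for the 123 related genes that passed the filter on low counts, by list (filled points, adjusted p under 0.05). Filled points lie on both sides of 0 in 8 of 9 lists, and the phosphate transporters have none.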

How the data were processed

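The deposited files hold UMI counts per gene and cell barcode, which the authors made with Cell Ranger on the prebuilt mm10 reference, using 10x Chromium 3' libraries. The submitters' processing notes name Cell Ranger 2.2.0 for replicates A and 4T1 and 3.0.2 for replicates B, whereas the headers of all deposited matrices name 3.0.2. The version of STAR is not given in sources used here. Of 13745 barcodes, 12168 passed the limits of the rule. The study's filters, which also remove cells 3 MADs below the median and shared barcodes, left 9983 of 11842 barcodes of the 3 tumor types and were an alternative. No doublet caller was run, and a cap at 3 times the median UMI count stood in for it. The members and lists were chosen with earlier results of these data known.

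UMIs were summed per library (or per library and cell class) and fitted with edgeR 4.0.16 (TMM, filterByExpr, quasi-likelihood test, Benjamini-Hochberg) in R 4.3.3. BRCA1-null, PyMT and Neu entered 1 fit with 3 residual degrees of freedom, and 4T1, with 1 library of another strain, entered none. SE is the log2 change over the root of F. Cell classes were compared after thinning each cell to 3000 UMIs, and the genes that define a split were left out of its totals. Replicates are separate tumors, so n is 2 per type. Libraries of 1 letter were sequenced as 1 batch, as the study's methods state, so the letter pairs libraries across types. Deviations of B from A correlated at 0.024 for BRCA1-null with PyMT, at 0.099 for BRCA1-null with Neu and at 0.200 for PyMT with Neu. Named related genes are those past the test with the highest mean CPM, up to 3 per list and direction. Some of the genes this rule picked are not reported here. On simulated counts for PyMT against BRCA1-null (13950 genes), 78.0% of 8-fold and 98.0% of 32-fold increases and 70.0% and 87.2% of such decreases were recovered. For the Lalba split (9511 genes), 84.0% of 2-fold increases and 71.7% of 2-fold decreases were. The member changes called in that split, 0.26 to 0.66 in log2, are smaller than 2-fold, and recovery at such sizes was not simulated. The same holds for the Slc34a2 change of 1.93 between PyMT and BRCA1-null, which is under 8-fold. Alternatives were DESeq2 1.42.0, its size factors, no filter, other cell filters, the replicate block and each library left out.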

Additional observations from a re-analysis of the deposited data

Results flagged for a closer look

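The 4T1 library entered no comparison, and no control library exists. For 7 members it held more than 3 UMIs, the limit that a count of 0 allows. Levels were 22.3 CPM for Aqp5, 19.0 CPM for Slc12a2, 6.53 CPM for Tspan8, 4.26 CPM for Aqp3, 4.16 CPM for Duoxa1, 3.32 CPM for Slc6a2 and 0.297 CPM for Duox1. The Slc6a2 level was above all BRCA1-null and PyMT libraries (0.110 to 0.813 CPM), with 67 UMIs in 34 of 1751 cells, and that of Aqp3 lay between BRCA1-null and PyMT. With 1 library of another strain, these differences were not tested. Groups of 2 libraries were too small for a search of outlying samples.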

How the results depend on the processing

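The count of members called between PyMT and BRCA1-null, 2 as reported, was 4 with DESeq2 and 4 without the filter on low counts, 3 with the UMI cap and 3 with the replicate block, and 1 to 2 with a library left out. These higher counts include Slc6a2, which entered the fit only through Neu, so they are no test of that gene. The related genes higher in Neu, 27 as reported, ranged from 8 to 33 with a library left out, and those lower, 14 as reported, from 1 to 23, with 24 lower when no filter on low counts was used. Under the replicate block these counts were 26 and 15, and the block changed the call of Cd63 and Duox2 among the related genes named. For the Lalba split, 5 members as reported, the count was 2 with DESeq2, 3 with thinning to 2000 UMIs, 3 with the UMI cap and 0 with no replicate block, with Slc34a2 gained and Slc6a2 lost under the study's filters, and the Cd14 and proliferation splits went from 1 and 5 to 0 and 0 with no replicate block. Directions reversed only for values that had missed the threshold. Between PyMT and BRCA1-null, with a library left out, Duox1 ranged from -0.99 (without PyMT B) to 0.52 (without BRCA1-null B) and Duoxa1 from -0.40 (without PyMT B) to 1.32 (without BRCA1-null B). In the Cd14 split Slc12a2 was at -0.058 with the study's filters, and Duox1 was at 0.059 when thinned to 2000 UMIs and at 0.020 with the study's filters. In Neu B alone and Neu A alone, the Cd14 values were 0.067 and -0.44 for Slc6a2, 0.12 and -0.16 for Slc12a2 and 0.074 and -0.27 for Duox1. The proliferation values were -3.07 and 0.40 for Slc34a2 and 0.18 and -0.61 for Duox1. Over all genes, Neu gave 1865 higher and 1362 lower, with 2184 lower by DESeq2, 2118 lower without the filter, and 405 to 2482 higher and 172 to 2263 lower with a library left out. PyMT against BRCA1-null gave 1108 and 2017, with 3073 lower without the filter, and 85 to 1859 higher and 165 to 2121 lower with a library left out. The Lalba split gave 93 higher and 157 lower, with 14 and 26 by DESeq2, 157 higher at 2000 UMIs and 141 higher with the UMI cap. The Cd14 split gave 234 and 82, with 29 and 3 by DESeq2, 105 and 15 with the UMI cap, 45 lower at 2000 UMIs and 42 lower with the study's filters. The proliferation split gave 388 and 529, with 207 and 128 by DESeq2, 193 higher at 2000 UMIs, and 171 and 28 with no replicate block. The causes were not tested. The number of members in at least 5% of cells of both Neu libraries was 6 under every depth and filter tried, and pairs with r over 0.1 in both libraries numbered 6, against 4 at 2000 UMIs and 7 with the study's filters. Having 2 libraries a type and low counts of Slc34a2, Aqp3 and Slc6a2 limits these results.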
